A study of Mus musculus with 12 samples.

Results

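10 genes of the arterial endothelial programme and the Notch pathway were followed across single cells from 3 blood-forming sites of the mouse: the aorta-gonad-mesonephros (AGM), the fetal liver and the bone marrow. They are Dll4, Notch1, Notch4, Hey1, Hey2, Sox17, Efnb2, Nrp1, Gja4 and Gja5, 10 of the 22307 gene symbols in the plate tables. They were chosen by name, and each was looked up in the tables of unique molecular identifiers (UMIs, which mark original RNA molecules) of all 12 plates. All 10 had UMIs in kept cells. A filter on low counts was passed by Nrp1, Gja4, Gja5 and Hey2 through the AGM library alone. Hey1 had 10 UMIs outside AGM and reached the filter's minimum total of 15 UMIs only with AGM. All of these genes could be tested only because they were high there.

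Every cell is labelled as a haematopoietic stem cell (HSC) and comes from a series on DARLIN, a mouse line that records lineage in an editable DNA array. The groups are AGM (2 plates under 1 origin code in the titles), fetal liver (5 plates under 2 codes) and bone marrow (5 plates under 2 codes). The sources used here do not give age, sort markers, sex or any induction of the recorder, nor whether each code stands for 1 animal. Cytoplasmic polyadenylated RNA of each cell was read on 96-well plates. Kept were 143 AGM, 454 fetal liver and 423 bone marrow cells, with plate totals of 2596681 to 15977740 UMIs. Median depth per cell was 159228 UMIs for AGM but 54303 for fetal liver and 59558 for bone marrow, so shares of cells with a UMI were also taken after drawing the same number of UMIs from each cell (thinning).

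Notch receptors are cut when a ligand on a neighbouring cell binds them, and the freed intracellular part joins the DNA-binding protein Rbpj to switch on targets such as the Hes and Hey repressors. In the embryonic aorta this pathway and SoxF factors maintain arterial identity, and blood stem cells arise from arterial (haemogenic) endothelium. Efnb2 is a membrane ligand of Eph receptors that marks arteries, Nrp1 helps receptors of vascular growth factors and of semaphorins bind their ligands, and Gja4 and Gja5 are connexins of arterial gap junctions.

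The labels were set beside marker lists. All 14 genes of the HSC list had UMIs in every tissue. They summed to 1359 to 1432 CPM (counts scaled to library size) on AGM plates, 1652 to 1905 on fetal liver plates and 1822 to 2090 on bone marrow plates. That list held Cd48, which is not a positive marker of HSCs, and shared Kit with the haematopoietic list, so its sum does not test the label. Endothelial markers summed to 2272 to 2826 CPM on AGM plates, 1178 to 1524 on fetal liver plates and 629.7 to 901 on bone marrow plates. Of these 15 markers all had UMIs in AGM and fetal liver, and Cdh5, Plvap and Mmrn2 were at 0 in bone marrow. Cdh5, the endothelial cadherin, was found in 97.2% of AGM cells, 4.63% of fetal liver cells and 0 of 423 bone marrow cells. The cells labelled HSC from AGM thus carried endothelial RNA along with blood RNA, since the 15 haematopoietic markers also summed to 1937 to 2120 CPM there. Smooth muscle and mesenchyme markers were at 60.4 to 68.5 CPM on AGM plates, mostly as Acta2 (56.2 CPM), and at most 13.3 CPM elsewhere, and neural markers were at 38.0 to 40.7 CPM against at most 7.07. The erythroid list, mostly the globin Hbb-bt, summed to 135 to 197 CPM on AGM plates, 40.8 to 2275 on fetal liver plates and 176 to 389.8 on bone marrow plates. Macrophage markers, mostly Lyz2, were lower on the AGM plates (333 to 338 CPM) than on those of fetal liver (566 to 773) and bone marrow (526 to 769), and C1qa was at 0 in all 3 tissues. Hepatocyte markers summed to 50.4 to 59.2, 28.7 to 93.0 and 53.8 to 95.4 CPM in the same order, and epithelial and gonadal markers, mostly Krt18, to 148 to 168, 54.8 to 94.96 and 167 to 275 CPM. The mitochondrial genes summed to 1258 to 1276 CPM on AGM plates, 930.0 to 5610 on fetal liver plates and 1260 to 2907 on bone marrow plates.

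The stretch before the start site is shown for the 3 members in which it held a letter match to a motif of the pathway's DNA-binding factors. RefSeq windows (GRCm38.p6) matched 8 of the 10 members, and the 250 bases before the start site were searched on both strands for TGGGAA (the core bound by Rbpj), ACAAT (the core of SOX sites) and CACGTG (an E-box of the kind that Hes and Hey proteins can bind), none of which overlaps another in letters here. The sequences are chr10:30842784-30843033 (minus strand) before Hey2, chr4:127314040-127314289 (minus strand) before Gja4 and chr17:34564045-34564294 (plus strand) before Notch4. They are written 5′ to 3′ along the gene, with the matches in capitals.
Hey2: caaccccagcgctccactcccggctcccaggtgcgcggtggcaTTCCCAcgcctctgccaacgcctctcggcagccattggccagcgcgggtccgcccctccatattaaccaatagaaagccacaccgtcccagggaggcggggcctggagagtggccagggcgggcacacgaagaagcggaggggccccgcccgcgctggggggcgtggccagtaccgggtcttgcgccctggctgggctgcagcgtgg
Gja4: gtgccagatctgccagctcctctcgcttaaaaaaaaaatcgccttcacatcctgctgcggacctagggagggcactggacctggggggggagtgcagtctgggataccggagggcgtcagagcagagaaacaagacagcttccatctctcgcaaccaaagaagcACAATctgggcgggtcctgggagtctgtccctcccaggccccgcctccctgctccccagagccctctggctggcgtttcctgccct
Notch4: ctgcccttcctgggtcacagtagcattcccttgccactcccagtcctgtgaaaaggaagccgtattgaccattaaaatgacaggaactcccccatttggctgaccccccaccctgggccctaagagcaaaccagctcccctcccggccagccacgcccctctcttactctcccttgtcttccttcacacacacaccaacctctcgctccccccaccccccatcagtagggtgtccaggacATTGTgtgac
In Hey2 the capitals are the Rbpj core on the other strand, 207 to 202 bases before the start, and another copy spans the start site itself, from base -3 to base 3. In Gja4 they are the SOX core 86 to 82 bases before the start, and in Notch4 the SOX core on the other strand 10 to 6 bases before it. These distances are from the RefSeq start, which for Hey2 and Notch4 lies inside the gene by the positions given below. The Notch4 match and the second Hey2 copy thus fall within those genes. The Rbpj core was in 1 of 8 members' windows against 21.6% of all 32851 windows, the SOX core in 2 of 8 against 27.7%, and the E-box in 0 of 8 against 6.02%. The members' windows were rich in G and C, from 56.4% (Gja5) to 72.0% (Efnb2), against a median of 52.4% over all windows.

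In fetal liver against AGM, Nrp1, Gja4, Gja5, Sox17, Hey1 and Efnb2 fell, 6 of 10 members. In the same fit 1.91% of 15472 tested genes were called lower and 2.92% higher (edgeR's quasi-likelihood test on UMI sums per origin code, Benjamini-Hochberg adjusted p under 0.05). In bone marrow against AGM, 6 of 10 members also fell, with Dll4 in place of Efnb2, where 3.63% of genes were called lower and 5.29% higher. Nrp1, Gja4, Gja5 and Hey2 passed the filter through AGM alone, and Hey1 reached its minimum total only with AGM. These genes could be tested only as falls, and nothing is read from these counts against the background. Of Sox17, Dll4, Notch1, Notch4 and Efnb2, Sox17 and Efnb2 fell in fetal liver and Sox17 and Dll4 in bone marrow. Both comparisons share the 1 AGM library, whose spread between animals was not measured. Summed counts do not tell fewer expressing cells from less RNA per cell, and the endothelial, smooth muscle and neural markers were also higher on the AGM plates, as was depth per cell, while macrophage markers were lower. The part of these in the falls was not tested.

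**Figure D1:**
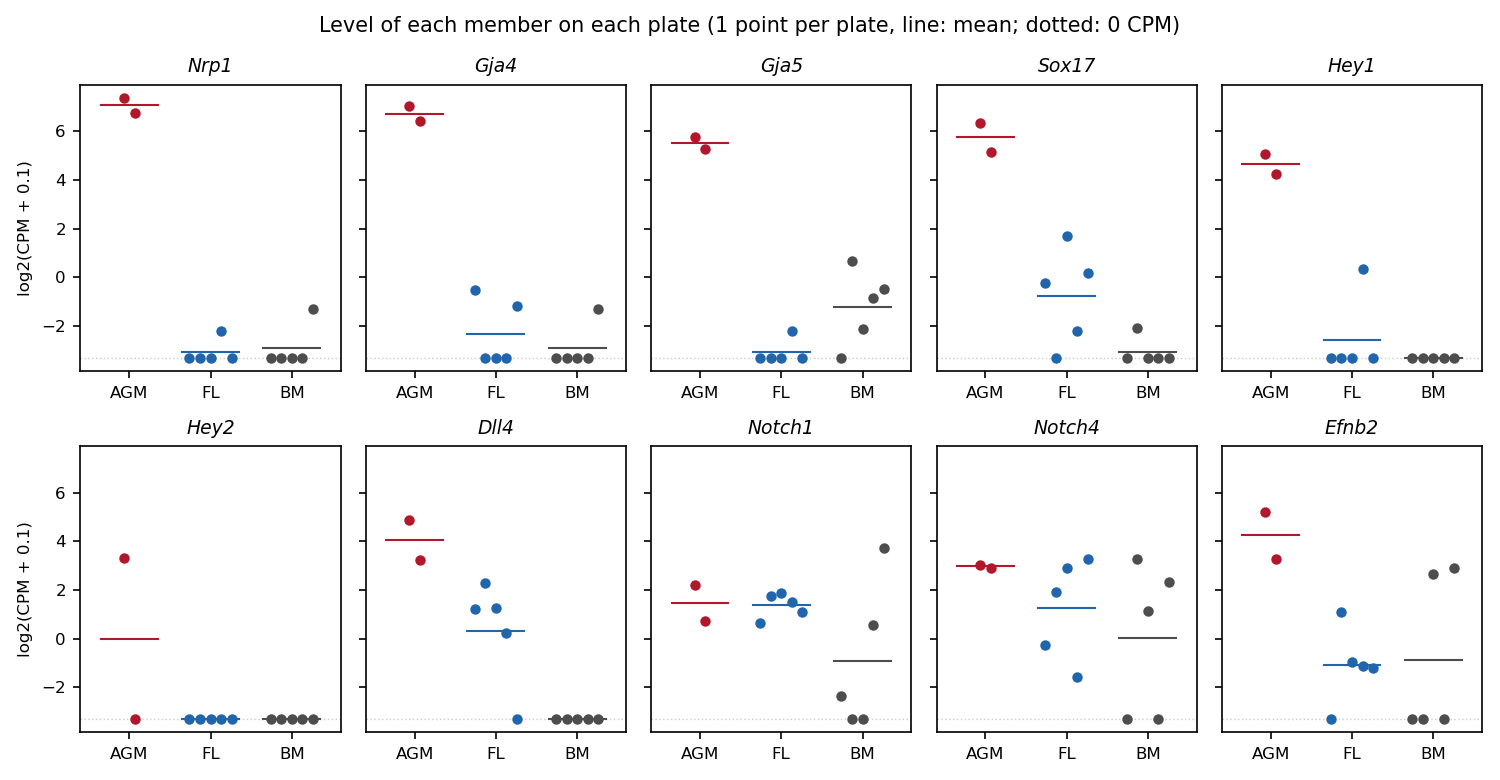
Level of each of the 10 members on each plate, as log2(CPM + 0.1), scaled to library size, where the dotted line marks 0 CPM. FL is fetal liver and BM is bone marrow; points are plates and lines their mean on this scale. Nrp1, Gja4, Gja5, Sox17, Hey1, Dll4 and Efnb2 stand apart on both AGM plates, while Notch1 and Notch4 overlap between tissues and Hey2 was seen on AGM plate 1 alone.

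Dll4, the endothelial Notch ligand (chromosome 2, 119325784 to 119335962, plus strand, GRCm38, overlapped by Gm14207 on the other strand), was at 29.1 and 9.34 CPM on AGM plates 1 and 2. Fetal liver plates 1 to 5 had 2.22, 4.75, 2.31, 1.06 and 0 CPM, and no bone marrow plate had a UMI. The plates of the 3 tissues did not overlap between AGM and the other tissues, but the difference from fetal liver did not pass the test (log2 fold change -3.52 ± 1.29, adjusted p = 0.151). Against bone marrow Dll4 was at least 226-fold lower there than in AGM, by a floor of 3 UMIs over all bone marrow libraries (adjusted p = 9.09e-04). That call was lost without fetal liver plate 4 (adjusted p = 0.0528), and the cause was not tested.

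The receptors gave no call in any comparison. Notch1, a receptor needed for blood stem cells to emerge from the aorta (chromosome 2, 26457903 to 26516663, minus strand, overlapped by 3 genes) had 4.49 and 1.56 CPM on AGM plates 1 and 2. Fetal liver plates 1 to 5 had 1.48, 3.30, 3.57, 2.71 and 2.03 CPM, and bone marrow plates 1 to 5 had 0.0966, 0, 0, 1.37 and 13.2 CPM. The ranges of all 3 tissues overlapped, and bone marrow plate 5 held the highest value of all plates. Fitted differences were -0.41 ± 1.92 in fetal liver and 0.28 ± 1.97 in bone marrow (adjusted p = 0.957 and 0.967). These errors allow changes of severalfold in either direction, and the sign in bone marrow turned without plate 5 (-2.62).

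Notch4, the receptor found mainly in endothelium (chromosome 17, 34564268 to 34588503, plus strand, overlapped by the pseudogene Gm20462), had 8.15 and 7.36 CPM on AGM plates 1 and 2. Fetal liver plates 1 to 5 had 0.740, 3.72, 7.34, 0.236 and 9.47 CPM, and bone marrow plates 1 to 5 had 0, 9.57, 2.08, 0 and 4.92 CPM. Fetal liver plate 5 and bone marrow plate 2 reached above both AGM plates, fetal liver plate 3 lay beside AGM plate 2, and fetal liver plates 1 and 4 and bone marrow plates 1 and 4 were at or near 0. The fitted differences of -1.33 ± 1.40 and -1.28 ± 1.40 did not pass the test (adjusted p = 0.716 and 0.651).

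Among the targets, Hey1, a repressor switched on by Notch (chromosome 3, 8663359 to 8667256, minus strand, no overlapping gene), was at 33.6 and 19.1 CPM on the AGM plates. Outside AGM it was seen in 1 fetal liver cell, with 10 UMIs on plate 4 (1.18 CPM), and in 0 of 423 bone marrow cells, which allows a share of up to 0.709%. In fetal liver it fell (log2 fold change -6.06 ± 1.53, adjusted p = 0.0237) and was at least 289.8-fold lower in bone marrow (adjusted p = 0.00140). The fetal liver call was the less firm of the pair. It was lost in 10 of 28 alternatives, among them the fits without AGM plate 1, fetal liver plates 3 and 5 or bone marrow plates 2, 4 and 5, and without the first fetal liver code.

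Hey2, the closest relative of Hey1 (chromosome 10, 30832359 to 30842801, minus strand, no overlapping gene), rested on few cells. AGM plate 1 had 182 UMIs (9.96 CPM) and AGM plate 2 had 0 of 48 cells with a UMI. Of the AGM UMIs 162 lay in 5 cells with 21 to 46 UMIs each, while 16 cells had 1 UMI and 2 cells had 2. Hey2 was at 0 in 454 fetal liver cells and 423 bone marrow cells, at least 59.6-fold and 66.1-fold lower than in AGM by the floor of 3 UMIs. Neither difference passed the test (adjusted p = 0.147 and 0.110).

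Sox17, a SoxF transcription factor of arterial and haemogenic endothelium (chromosome 1, 4490931 to 4497354, minus strand, overlapped by Gm37587 on the other strand), was at 82.1 and 35.6 CPM on the AGM plates. Fetal liver plates 1 to 5 had 0.740, 0, 3.15, 0.118 and 1.01 CPM, and bone marrow had 1 UMI, on plate 2. Every other plate lay far below both AGM plates. It fell by 6.32 ± 0.82 on the log2 scale in fetal liver (adjusted p = 4.01e-05), and AGM stood 2009-fold above the single bone marrow UMI (counting interval 360.1 to 79392, adjusted p = 1.03e-06).

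Nrp1 (chromosome 8, 128358604 to 128503363, plus strand) was at 168 and 108 CPM on AGM plates 1 and 2. Each other tissue gave a single UMI, on fetal liver plate 4 and bone marrow plate 5. The AGM level was 4481-fold that of bone marrow (counting interval 804 to 177031, adjusted p = 8.29e-09), and the fetal liver difference was called as well (adjusted p = 3.60e-08).

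Of the connexins, Gja4 (chromosome 4, 127311421 to 127314039, minus strand, no overlapping gene) was at 131 and 85.3 CPM on the AGM plates. Fetal liver held 5 UMIs, 4 of them in 1 cell of plate 1, and bone marrow 1 UMI (AGM 3512-fold higher, counting interval 630.0 to 138776, adjusted p = 3.53e-08). Gja5 (chromosome 3, 96904693 to 97077416, plus strand, overlapped by 4 genes on the other strand) was at 54.9 and 38.2 CPM on the AGM plates. It had 1 UMI in fetal liver and 15 in bone marrow, of which 11 were in 1 cell of plate 2. Gja5 fell by 6.58 ± 0.97 on the log2 scale in bone marrow (adjusted p = 1.02e-04) and stood 1346-fold above its single fetal liver UMI (counting interval 241 to 53196, adjusted p = 1.25e-05).

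Efnb2 (chromosome 8, 8617434 to 8661242, minus strand, overlapped by 3 genes on the same strand, so that their reads cannot be told apart) was at 37.3 and 9.54 CPM on AGM plates 1 and 2. Fetal liver plates 1 to 5 had 0, 2.06, 0.419, 0.354 and 0.338 CPM, and bone marrow plates 1 to 5 had 0, 0, 6.23, 0 and 7.38 CPM. Bone marrow plates 3 and 5 came close to AGM plate 2 without reaching it. Efnb2 fell in fetal liver (log2 fold change -5.61 ± 1.16, adjusted p = 0.00464), a call that was lost in 7 of 28 alternatives, among them the fits without AGM plate 1, fetal liver plate 4, bone marrow plates 3 and 5 or the second fetal liver code. In bone marrow the difference of -3.14 ± 1.06 missed the threshold (adjusted p = 0.0733).

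Between bone marrow and fetal liver, 2 of 10 members were called, Dll4 and Sox17, both lower in bone marrow, where 2.06% of all tested genes were called lower and 2.68% higher. Dll4 had 58 UMIs in fetal liver, on 4 of 5 plates, and 0 in bone marrow, at least 21.5-fold lower (adjusted p = 0.0236). Sox17 had 24 UMIs in fetal liver and 1 in bone marrow, a ratio of 26.6 (counting interval 4.34 to 1095, adjusted p = 0.0266). Both tissues' plates overlapped for every member, and neither call was stable: Dll4 was called in 15 of 28 alternatives and Sox17 in 12 of 27. Of the 24 Sox17 UMIs 14 were in 1 cell of fetal liver plate 3. No fold was formed for Nrp1 and Hey2, which were at or under the floor of 3 UMIs in both tissues. For Nrp1, Gja4, Gja5, Sox17 and Hey1 the level in AGM was thus the highest, and fetal liver and bone marrow lay near 0; for Notch1 and Notch4 no neighbouring tissues differed beyond their spread.

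Seen cell by cell, Gja4, Nrp1, Sox17, Gja5, Hey1 and Dll4 had a UMI in most AGM cells before thinning. Efnb2, Notch4, Hey2 and Notch1 were found in fewer, and all members were rare elsewhere. Without thinning a UMI of Gja4 was found in 85.3% of AGM cells, of Nrp1 in 83.2%, of Sox17 in 72.7%, of Gja5 in 67.8%, of Hey1 in 52.4%, of Dll4 in 51.0%, of Efnb2 in 43.4%, of Notch4 in 19.6%, of Hey2 in 16.1% and of Notch1 in 11.9%. Outside AGM the highest share of any member was 6.83%, for Notch4 in fetal liver. With at least 3 UMIs, Nrp1 (60.8%) and Gja4 (58.7%) were still in most AGM cells. By that measure Sox17 was in 41.3%, Gja5 in 30.1% and Hey1 and Dll4 in 23.1% each. The highest such share outside AGM was 1.98%, for Notch1 in fetal liver. After thinning to 20000 UMIs, which 141 AGM, 419 fetal liver and 392 bone marrow cells reached, Nrp1 was still found in 56.7% of 141 AGM cells (exact binomial interval 48.1 to 65.0%) but in 0 of 419 fetal liver cells and 1 of 392 bone marrow cells. Notch1 was found in 6.38% of AGM cells (2.96 to 11.8%), 3.58% of fetal liver cells (2.02 to 5.84%) and 1.02% of bone marrow cells (0.279 to 2.59%). The Notch1 intervals of AGM and fetal liver overlapped, while that of bone marrow lay below that of AGM. So did the Notch4 interval of bone marrow (0.721 to 3.64%, against 4.48 to 14.4% in AGM), and fetal liver overlapped AGM (2.38 to 6.42%). These intervals cover counting error only, and cells of 1 origin are not replicates.

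**Figure D2:**
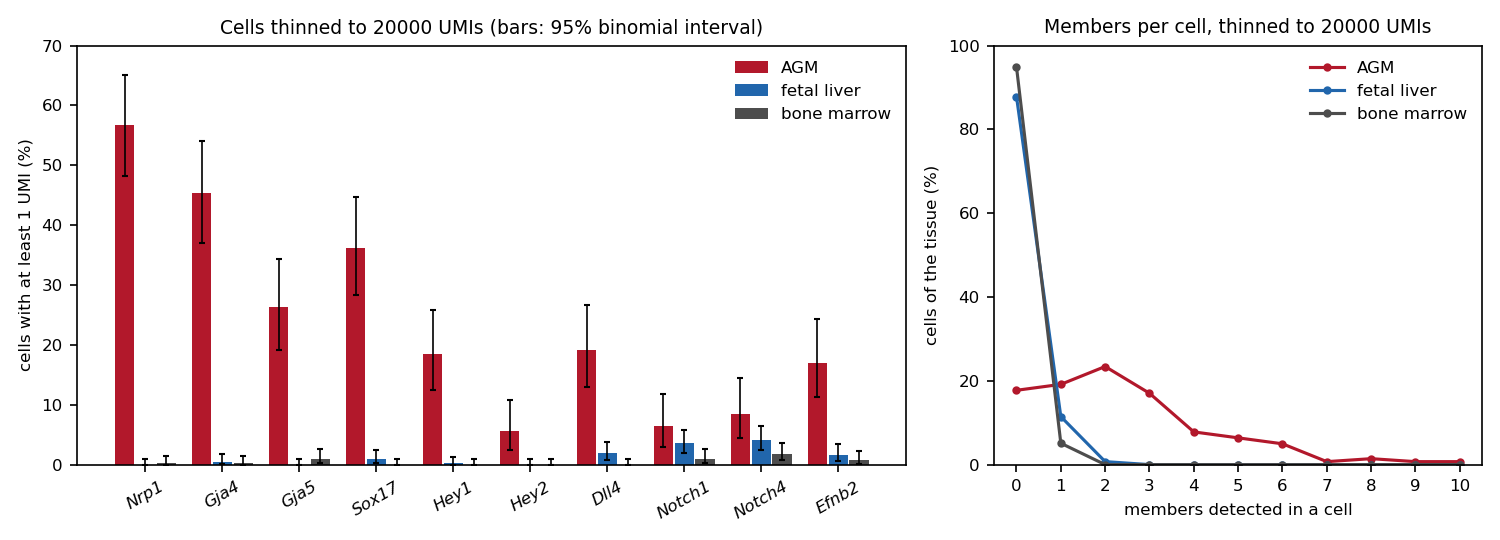
Left, share of cells with at least 1 UMI of each member after thinning each cell to 20000 UMIs, with exact 95% binomial intervals over cells. Right, the share of cells of each tissue in which 0 to 10 members were detected at that depth: 23.4% of AGM cells had 2 members, while none was detected in 87.8% of fetal liver cells or 94.9% of those from bone marrow.

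Most AGM cells held several members, while most cells with a member elsewhere held 1. Each member was also found more often in AGM cells, and the overlap that this alone would give was not computed. An AGM cell held a median of 5 of the 10 members without thinning, 3 at 50000 UMIs and 2 at 20000 UMIs, and 138 of 143 AGM cells held at least 2. In fetal liver 81 of 454 cells held a member and 7 held 2, and in bone marrow 40 of 423 held a member and none held more than 1. At 20000 UMIs any member was found in 82.3% of AGM cells, 12.2% of fetal liver cells and 5.10% of bone marrow cells.

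The UMIs outside AGM were unevenly spread over cells. Of 128 pairs of a cell and a member with a UMI there, 85 had 1 UMI, whereas 15 had 10 or more and carried 306 of the 515 UMIs. The largest were 54 UMIs of Notch4 in 1 cell of bone marrow plate 2, 36 of Efnb2 in 1 cell of bone marrow plate 3 and 31 of Notch4 in 1 cell of fetal liver plate 3. In 14 of these 15 cells no second member was found, and Cdh5 and Cldn5, of endothelial junctions, were at 0 in all 15. Cdh5 was rare over all cells too, at 4.63% in fetal liver and 0 of 423 in bone marrow, so its absence is no trait of these cells. Pecam1, an adhesion molecule of endothelium that blood cells also carry, had UMIs in 4: 36 in the Gja5 cell of bone marrow plate 2, 16 in the Hey1 cell of fetal liver plate 4, 15 in the Notch4 cell of bone marrow plate 3 and 1 in the Notch4 cell of fetal liver plate 3. Hes1 had UMIs in 5 of the 15, all fetal liver cells, on plate 3 but for the Hey1 cell of plate 4. Over all cells Hes1 was found in 15.4% in fetal liver and 4.73% in bone marrow. Ptprc, which encodes the blood cell antigen CD45, had UMIs in 10, beside 56.6% and 45.2% of all cells in the same order. Single cells made up most of some plate levels: of the 43 Notch1 UMIs on bone marrow plate 5, 25 and 15 were in 2 cells, and all 24 Efnb2 UMIs there were in 1. All 10 bone marrow cells with 1 Efnb2 UMI were on plate 3, which held the cell with 36. In AGM all 16 cells with 1 Hey2 UMI were on plate 1, with the cells of 21 to 46. This was not general: the second fetal liver code had 13 cells with 1 Notch4 UMI and at most 8 in a cell. Whether cells with 1 UMI expressed the gene was not tested, so shares of cells with a UMI are not shares of expressing cells.

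Within AGM the UMIs of each member were also concentrated. For Nrp1 17 of 143 cells held 50% of the UMIs, for Gja4 11, for Sox17 10, for Hey1 and Dll4 9 each, for Gja5 8, for Efnb2 5, for Notch1 4, for Notch4 3 and for Hey2 2. The middle 50% of AGM cells ran from 1 to 40 Nrp1 UMIs, with a median of 8, and from 1 to 20 Gja4 UMIs, with a median of 4. The highest cells had 221 Nrp1, 206 Gja4, 172 Sox17 and 138 Gja5 UMIs.

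The 2 AGM plates, which share 1 origin code, differed for some members more than for others. Dll4 was found in 64.2% of cells of plate 1 and 25% of plate 2, Efnb2 in 58.9% and 12.5%, Hey1 in 60.0% and 37.5%, and Hey2 in 24.2% and 0%. Nrp1 (86.3% and 77.1%), Gja4 (90.5% and 75%), Gja5 (66.3% and 70.8%) and Sox17 (72.6% and 72.9%) were closer. Median depth per cell was 155534 UMIs on plate 1 and 165904 on plate 2. Cdh5 followed the same order in level (120.2 and 75.7 CPM) but was found in 96.8% and 97.9% of cells. With 95 and 48 cells of 1 code, these are descriptions of the plates.

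The cells in which pairs of members met are given for the 139 AGM cells with at least 50000 UMIs, thinned to that number. Nrp1 and Gja4 were found together in 67 of them, and Gja4 was found in 71.3% of cells with Nrp1 and 42.2% of cells without. Dll4 was found in 41.5% of cells with Nrp1 and 8.89% without, and in 44.2% of cells with Gja4 and 9.43% without. Over both plates, Spearman's rho between UMI counts was 0.545 for Nrp1 and Gja4 (0.615 on plate 1 and 0.396 on plate 2), 0.478 for Gja4 and Gja5, 0.453 for Gja4 and Dll4 and 0.438 for Nrp1 and Dll4. The order of the pairs was not the same on plate 2, where Nrp1 and Gja4 lay below other pairs such as Nrp1 and Sox17 (0.494), Gja4 and Dll4 (0.487) and Gja4 and Gja5 (0.482). Without thinning Gja4 and Dll4 (0.557) lay above Nrp1 and Gja4 (0.543). Notch1 and Notch4 met in 1 cell, and counts this sparse carry no pattern. These cells share 1 origin code and 2 plates, so the values describe these cells without a test.

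Cells with a UMI of Ptprc had less of some members. Of the 139 thinned cells, 52 had Ptprc and 87 did not, by their unthinned counts. Nrp1 was found in 51.9% of cells with Ptprc and 77.0% without, with a mean of 5.65 and 12.2 UMIs, and Dll4 in 19.2% and 37.9%. Gja4 was found in 59.6% and 63.2% of cells, at means of 3.63 and 10.6 UMIs. Hes1, a Notch target, was found in 76.9% and 85.1%, and Runx1, the transcription factor needed for blood emergence, in 86.5% and 85.1%. A split by Mki67, a marker of dividing cells, gave closer shares: Nrp1 was found in 66.7% with and 69.0% without, and Dll4 in 33.3% and 27.6%. A split by Acta2 gave 66.3% with and 70.5% without for Nrp1, 66.3% and 52.3% for Gja4 and 30.5% and 31.8% for Dll4, so the members were found in cells with and without Acta2.

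Genes that ran along with the summed member UMIs over these 139 cells were sought among 6854 genes. The sum is weighted to the members with most UMIs. Over all AGM cells without thinning, Nrp1 had 4113 and Gja4 3224, against 97 to 1844 for each other member. The highest Spearman's rho was that of Cldn5, an endothelial tight junction protein (0.734), then Sparc, a matrix protein (0.660), Ecscr, an endothelial surface protein (0.650), Id3, an inhibitor of helix-loop-helix factors (0.601), and Crip2, a LIM domain protein (0.556). The lowest were Prtn3, a protease of myeloid granules (-0.643), Rac2, a blood cell GTPase (-0.618), Cmtm7 (-0.610), Srgn, the proteoglycan of blood cell granules (-0.605), and Coro1a, an actin regulator of blood cells (-0.593). All 10 kept their sign on both plates. Hes1 followed the sum less closely (0.306), Procr, an HSC and endothelial receptor, more so (0.514), and Runx1 hardly (-0.095). For Notch1 alone no gene exceeded 0.320 across cells, too weak in such sparse counts to be read. Across the 12 plates the genes most like Notch1 in log2(CPM + 1) were Abca5, Sumf2, Commd2, Mfsd14b and Sstr1 (Pearson's r 0.844 to 0.872, of 11367 genes compared). Bone marrow plate 5, where 43 Notch1 UMIs lay in 3 cells, was the highest plate, and over the 11 plates without it, left out after seeing the data, r was 0.707 (Sstr1) to 0.870 (Commd2).

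**Figure D3:**
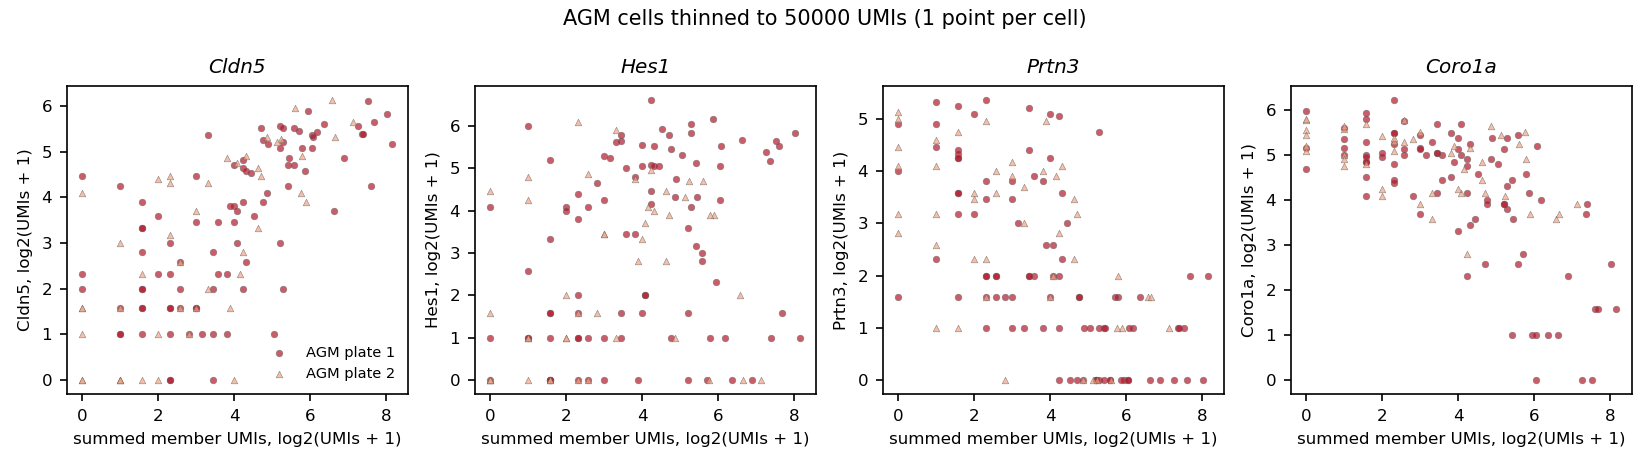
UMIs of 4 genes against the summed UMIs of the 10 members in 139 AGM cells thinned to 50000 UMIs, both as log2(UMIs + 1), with 1 point per cell and the plates marked. Cldn5 climbs with this sum, in which Nrp1 and Gja4 have the most UMIs (rho 0.734), Hes1 less so (0.306), and Prtn3 and Coro1a decline (-0.643 and -0.593).

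The remaining Notch pathway was described from lists, counted without the members. Of the other ligands and receptors 8 had UMIs and 5 were tested. None was called in fetal liver against AGM (1 at an unadjusted p under 0.05 in edgeR, 1 called by DESeq2 and 0 by limma). In bone marrow Notch2 rose, from 1.89 CPM in AGM to 12.4 and 45.6 CPM in the 2 bone marrow codes (log2 fold change 3.92 ± 0.90, adjusted p = 0.00724). Its fetal liver codes had 9.62 and 13.5 CPM, a difference from AGM that did not pass (adjusted p = 0.0876). Notch2 was thus higher on every fetal liver and bone marrow plate than on either AGM plate, whereas Notch1 and Notch4 overlapped. Dlk1, a non-canonical ligand, had 7.56 CPM in AGM, 23.4 and 20.5 in the fetal liver codes and 0.0794 and 5.40 in the bone marrow codes, with no call.

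Of 26 genes for receptor cleavage, trafficking and sugar transfer none was called in fetal liver against AGM (4 at an unadjusted p under 0.05 in edgeR, 2 by DESeq2, 5 by limma) and 1 fell in bone marrow. That gene was Dtx1, a ubiquitin ligase and Notch target, with 9.81 CPM in AGM, 1 UMI in fetal liver and 0 in bone marrow (adjusted p = 0.0421, called in 12 of 26 alternatives). It too passed the filter through AGM alone and could be tested only as a fall. In AGM 16 of 143 cells held Dtx1, and 1 cell had 89 of the 275 UMIs. Mfng, a fringe sugar transferase that tunes ligand choice, had 246 CPM in AGM, 189 and 233 in the fetal liver codes and 168 and 177 in the bone marrow codes. Psenen, a subunit of the cleaving enzyme, had 179, 287 and 289, and 315 and 306 CPM, and neither was called.

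Of 18 tested genes of the nuclear complex and its co-repressors none was called in fetal liver against AGM (3 at an unadjusted p under 0.05 in edgeR, 0 by DESeq2, 1 by limma). Hdac1, a histone deacetylase, fell in bone marrow from 152 to 95 and 69.9 CPM (-0.88 ± 0.27, adjusted p = 0.0447, called in 13 of 26 alternatives). Rbpj itself was at 51.4 CPM in AGM, 23.4 and 19.3 in the fetal liver codes and 65.6 and 39.7 in the bone marrow codes. It was higher in bone marrow than in fetal liver (1.31 ± 0.36, adjusted p = 0.0405), though the plates overlapped and 13 of 26 alternatives called it.

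Of 12 tested targets beyond Hey1 and Hey2, 2 fell and 1 rose in fetal liver and 3 fell and 2 rose in bone marrow against AGM. Hes1, the repressor most directly tied to Notch signals, was at 277 CPM in AGM, 26.0 and 20.8 in the fetal liver codes and 8.82 and 10.4 in the bone marrow codes. It fell in both (log2 fold change -3.56 ± 0.32 and -4.86 ± 0.34, adjusted p = 4.20e-07 and 3.51e-09), in all 26 alternatives. Cdkn1a, an inhibitor of the cell cycle, fell from 59.2 to 4.87 and 8.23 CPM in fetal liver and to 3.30 and 9.69 CPM in bone marrow. Myc went the other way, from 45.8 CPM in AGM to 197 and 169.9 in bone marrow (2.0 ± 0.31, adjusted p = 1.56e-04), and Ccnd1, a cyclin, rose in fetal liver from 62.7 to 159.8 and 153 CPM. Genes counted as Notch targets thus changed in both directions. Dtx1, which could be tested only as a fall, is counted in this list too.

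**Figure D4:**
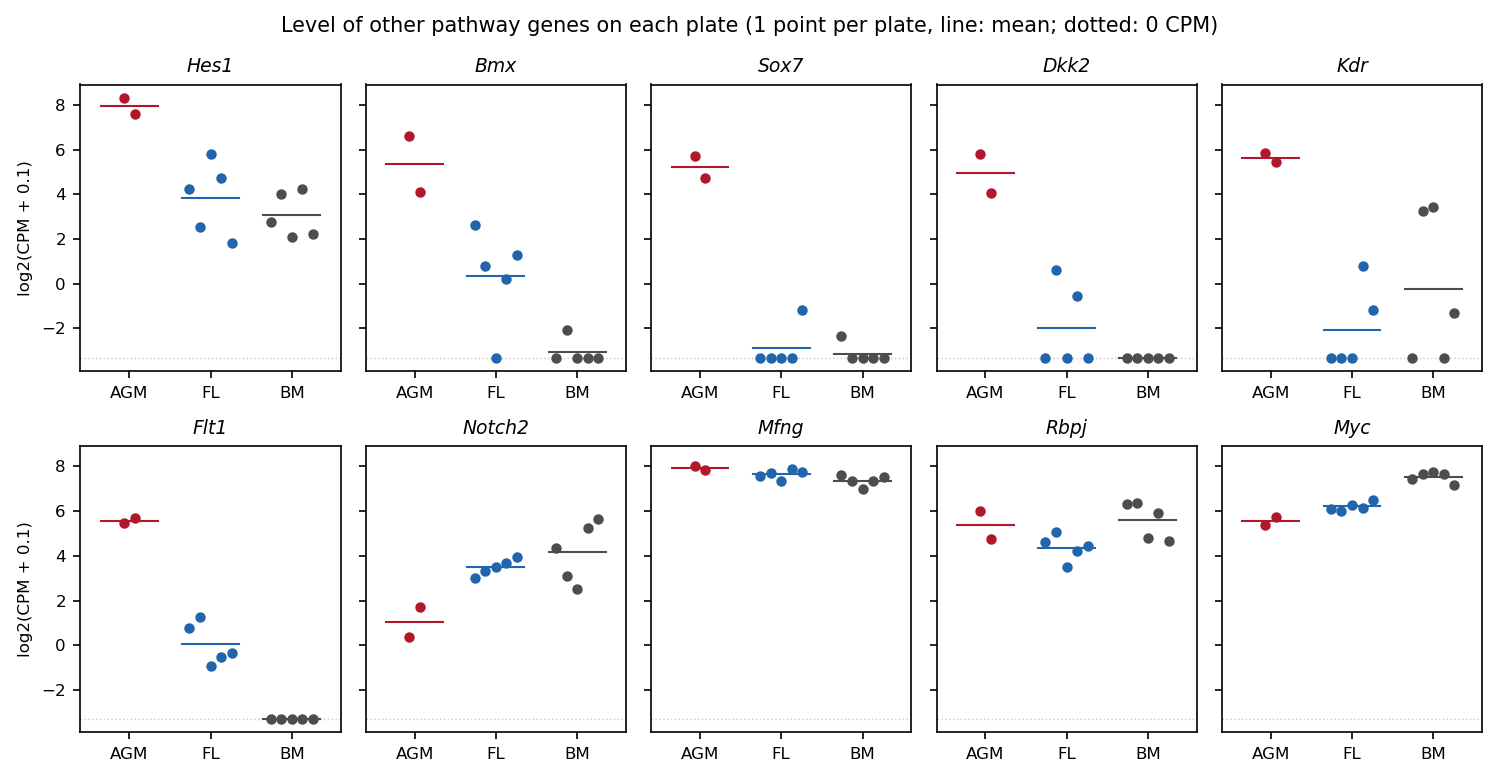
Level of 10 further genes of the lists on each plate, as log2(CPM + 0.1), drawn as for the members. Hes1, Bmx, Sox7, Dkk2, Kdr and Flt1 were highest on the 2 AGM plates, Notch2 and Myc were lowest there, and Mfng and Rbpj overlapped between AGM and another tissue.

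Of the arterial genes beyond the members 30 were tested. Of these 6 fell and 0 rose in fetal liver and 9 fell and 0 rose in bone marrow against AGM. The median log2 fold change was -3.31 and -2.60, or -2.78 and -2.49 with genes at 0 UMIs set at their bound, beside 0.05 and 0.04 over all genes. As with the members, a gene near 0 outside AGM, such as Sox7, could be tested only as a fall, so these counts and medians are descriptions. Bmx, a kinase of arterial endothelium, fell from 69.8 to 3.02 and 1.42 CPM in fetal liver (-4.96 ± 0.71, adjusted p = 1.22e-04). Sox7, like Sox17 a SoxF factor, had 43.3 CPM in AGM, with 1 UMI in each other tissue, and Dkk2, a secreted Wnt inhibitor, was at 42.1 CPM in AGM, 0.431 and 0.442 in fetal liver and 0 in bone marrow. Sox18, the remaining SoxF factor, was at 89.3 CPM in AGM and 45.0 and 37.4 in the fetal liver codes, with no call, and fell in bone marrow to 2.03 and 7.26 CPM (-4.39 ± 0.55). Heg1, a receptor of endothelial junctions, was higher in bone marrow than in fetal liver (65.5 and 54.4 against 13.5 and 10.4 CPM, 2.33 ± 0.39).

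Among the partners of Nrp1, Kdr and Flt1, the receptors of vascular endothelial growth factor, fell with it. Kdr was at 51.8 CPM in AGM, 0 and 1.33 in the fetal liver codes and 6.08 and 0.186 in the bone marrow codes (-6.36 ± 1.32 and -3.94 ± 1.18, adjusted p = 0.00513 and 0.0406), and 13 of 26 alternatives called the bone marrow difference. Flt1 was at 46.4 CPM in AGM, 1.48 and 0.619 in fetal liver and 0 in bone marrow. Of the 14 tested genes of this list 2 fell in fetal liver and 5 in bone marrow, the latter also including Plxnd1, a semaphorin receptor, and Gipc1, an adaptor of neuropilin.

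Of 16 other ephrins and Eph receptors none was called in fetal liver (2 at an unadjusted p under 0.05 in edgeR, 0 by DESeq2, 5 by limma), and Efna1 fell in bone marrow from 94.4 to 10.01 and 23.3 CPM (-2.53 ± 0.47, adjusted p = 0.00119). Of 13 tested venous and lymphatic genes 1 fell in each comparison with AGM, Vwf, which endothelium and megakaryocytes share, from 119.9 to 20.7 and 20.2 CPM in fetal liver and to 10.2 and 4.10 CPM in bone marrow. Efna1 is also counted among the arterial genes. The median log2 fold change against AGM was -0.83 in fetal liver and -1.76 in bone marrow for the ephrins and Eph receptors, and -1.47 and -2.06 for the venous and lymphatic genes.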

How the data were processed

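Plates of 96 wells were read by single-cell RNA-seq, and the authors deposited 1 table per plate with the raw count of UMIs per gene and well. The submitters' processing notes name SAMtools, featureCounts, UMI-tools and the mouse build mm10; the sources used here give neither versions nor order nor strand. Of 1152 wells, 1020 with at least 1000 genes, 3000 UMIs and under 20% mitochondrial UMIs were kept. No doublet caller was run, since wells were filled with single cells.

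UMIs were summed per origin code, giving 5 libraries (1 AGM, 2 fetal liver, 2 bone marrow). They were scaled by TMM, filtered with filterByExpr and tested over 15472 genes with edgeR 4.0.16 (quasi-likelihood, R 4.3.3), with Benjamini-Hochberg adjustment and a threshold of 0.05. Residual degrees of freedom were 2 and those of the prior 18.05; the common biological CV was 0.619. AGM has 1 library, which is assumed to vary like the others. Where nothing says that codes are separate animals, p-values measure only the spread between these libraries, which may be technical. The error after ± is the log2 fold change divided by the square root of F, an approximate standard error. Plate totals were 2596681 to 15977740 UMIs. CPM are per scaled library. The fit was checked on simulated counts. DESeq2 1.42.0 and limma 3.58.1 were alternatives.

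Shares of cells carry exact (Clopper-Pearson) 95% binomial intervals that cover counting error only. Cells were thinned to 20000 UMIs between tissues and to 50000 within AGM. Floors are 3 UMIs over a tissue. Genes beyond the members were named as the 3 with the lowest adjusted p among the called genes of each list and comparison or, with none called, the 2 with the highest mean level. Hes5 was named in addition to these. Genes most like the members were the 5 highest and 5 lowest by Spearman's rho. Gene positions are from GENCODE (GRCm38), whose symbols covered 98.2% of those in the tables. The members and lists were chosen with earlier results of these data known. The list of other connexins and pannexins is not reported here.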

Additional observations from a re-analysis of the deposited data

Results flagged for a closer look

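In 8 of 16 groups of 5 plates, 1 plate stood apart from the others of its tissue by Dixon's criterion, where chance gives about 1 in 20 for continuous values. That rate does not hold for 6 of the 8, in which the other 4 plates were at 0, so that any UMI on 1 plate met the criterion. In 5 of them that plate held 1 UMI and the others none. These were Nrp1 on fetal liver plate 4 (0.118 CPM), Nrp1 on bone marrow plate 5 (0.308 CPM), Gja4 on bone marrow plate 5 (0.308 CPM), Gja5 on fetal liver plate 4 (0.118 CPM) and Sox17 on bone marrow plate 2 (0.135 CPM). Hey1 on fetal liver plate 4 (1.18 CPM) was 10 UMIs in 1 cell. Notch1 on bone marrow plate 5 (13.2 CPM, the next plate at 1.37) was 43 UMIs in 3 cells. Efnb2 on fetal liver plate 2 (2.06 CPM, the next plate at 0.419) was 10 UMIs in 8 cells. Among wells left out for low depth, 1 well of bone marrow plate 5 held 4 UMIs of the members.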

How the results depend on the processing

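Sox17 was called lower than in AGM in all 28 alternatives of both comparisons. Outside AGM it passed the filter only through the first fetal liver code, where 14 of its 20 UMIs lay in 1 cell. In the fits without that code or that cell Sox17 could be tested only as a fall. Nrp1, Gja4 and Gja5 were also called in all alternatives, but as they passed the filter only through AGM this is no sign of stability. The genes called numbered 748 in fetal liver against AGM, 1380 in bone marrow against AGM and 732 in bone marrow against fetal liver. With cells with a UMI counted the first was 348, with only the 2 tissues compared the first was 2218 and the last 331, and with limma on plates the counts were 2170, 3610 and 2127. Leaving out a plate or an origin code gave 181 to 2186, 329 to 2748 and 117 to 1958, and the lowest were without fetal liver plate 4. Of the members called in bone marrow against fetal liver, 2 became 0 with detection counted, with only the 2 tissues compared, and in the added alternatives that left out cells with 1 UMI or the highest cell, which were chosen after seeing the data. They became 1 with limma and 0 to 4 when a plate or code was left out.

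Plate numbers count plates within a code and do not pair tissues: deviations of same-numbered plates correlated at -0.0258 to 0.0563 over 15 pairs. With plates as libraries and the replicate block, 594, 982 and 846 genes and 4, 6 and 0 members were called.

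Signs turned only for differences that were not called, and the cause was not tested. Notch1 in fetal liver against AGM ran from -0.76 to 0.76 over left-out plates and codes. Notch1 in bone marrow against AGM became -1.96 with detection counted, -0.063 with plates as libraries, -2.35 with the replicate block, -3.12 with limma and -0.43 without the highest cell, and ran from -6.25 to 1.46 over left-out plates and codes. Against fetal liver it became -0.83, -1.70 and -2.88 with detection, the replicate block and limma, and ran from -5.84 to 1.71. Notch4 there became -0.58, -0.35, -0.92, -1.03 and -1.24 with detection, plates as libraries, the replicate block, limma and without the highest cell, and ran from -1.01 to 0.74. Efnb2 there became -2.37 with the replicate block and -0.36 without the highest cell, and Gja4 there ran from -4.91 to 0.051.

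Depth limits the shares of AGM cells with a UMI. At 20000 UMIs they were 56.7% for Nrp1, 45.4% for Gja4, 26.2% for Gja5, 36.2% for Sox17, 18.4% for Hey1, 5.67% for Hey2, 19.1% for Dll4, 6.38% for Notch1, 8.51% for Notch4 and 17.0% for Efnb2. Leaving out either AGM plate gave 75 to 90.5% for Gja4, 37.5 to 60.0% for Hey1, 0 to 24.2% for Hey2, 25 to 64.2% for Dll4, 2.08 to 16.8% for Notch1 and 12.5 to 58.9% for Efnb2. The median number of members per AGM cell was 3 at 50000 UMIs, 5 without thinning, 2 at 20000 UMIs and 2 to 3 leaving out a plate.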
